A study of Homo sapiens with 16 samples.

Results

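H3K4me3, the trimethylated form of lysine 4 on histone H3, was mapped by chromatin immunoprecipitation followed by sequencing (ChIP-seq) in Toledo, a cell line established from diffuse large B-cell lymphoma. Suspension cultures received TP-064 at 5 uM, which inhibits the arginine methyltransferase CARM1, or the solvent DMSO, and were harvested on day 6. The 4 H3K4me3 libraries, 2 per treatment, are described here out of 16 samples in the series, which also hold H3K27ac, H3K4me1 and input libraries. All groups are of the same line, the labels do not say whether the 2 libraries of a treatment are separate cultures, and p-values therefore measure only their spread, which may be technical. Treatment cannot be told apart from sequencing lane, since the labels place DMSO libraries on lane 3 and inhibitor libraries on lane 4.

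The deposited peaks of the 4 libraries merged into 12970 regions, of which 9477 held a peak in every library. Peaks lay within 2 kb of an end of a protein-coding gene for 77.1% and 80.4% of the DMSO lists and for 83.1% and 82.1% of the inhibitor lists. With each list trimmed to its 10048 widest peaks, the difference in this share between treatments turned from 3.90 to -1.09 percentage points. That trim kept DMSO peaks from 1590 and 1407 bp upward and inhibitor peaks from 1039 and 487 bp upward. Of 8 B-cell markers, all had a peak at a gene end in both DMSO libraries and 7 in both inhibitor libraries. CD22, a B-cell surface lectin, was the marker without one there. Among 6 markers each of myeloid cells, of T or NK cells and of epithelial or stromal cells, 1, 1 and 1 had a peak with DMSO (CSF3R, BCL11B and COL1A1) and 1, 1 and 0 with the inhibitor. The lists carry no reads, so depth is unknown and a peak can be absent because it fell under the caller's threshold.

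H3K4me3 is laid down by the SET1 and MLL methyltransferase complexes around the starts of active genes and is removed by demethylases such as the KDM5 family. It forms a peak at each active start, and the peak is widest at strongly transcribed genes and at genes that define a cell type. CARM1 methylates arginines of histone H3 and of coactivators including CREBBP and EP300, the acetyltransferases named in the title of the series. The measure used below is covered length, the number of base pairs of a region that a library's peaks cover.

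The starts of 6 genes named below are printed here as picked examples. Each runs from 180 bases before to 25 bases after the RefSeq start in GRCh38.p14. E2F2, E2F1, CDC6 and MCM3 are narrower cell cycle genes, shown because their starts hold the letters searched. In those, capitals mark the letters TTTCCCGC, TTTCGCGC, TTTGCCGC or TTTGGCGC, or their reverse complements, which are words of the E2F binding motif. DUSP1 is an immediate early gene that narrowed, and its capitals mark the cAMP response element TGACGTCA. HBEGF, where H3K4me3 widened, holds none of the 4 E2F words in this window. That does not set it apart, since 6.00% of promoters in tested regions hold 1. The stretches are E2F2 at chr1:23531209-23531413 (- strand), E2F1 at chr20:33686361-33686565 (- strand), CDC6 at chr17:40287699-40287903 (+ strand), MCM3 at chr6:52284718-52284922 (- strand), DUSP1 at chr5:172771171-172771375 (- strand) and HBEGF at chr5:140346579-140346783 (- strand).
E2F2: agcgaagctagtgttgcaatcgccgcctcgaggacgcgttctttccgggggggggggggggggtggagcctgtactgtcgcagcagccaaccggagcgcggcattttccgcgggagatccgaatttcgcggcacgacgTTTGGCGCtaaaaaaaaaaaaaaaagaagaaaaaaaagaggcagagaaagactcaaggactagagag
E2F1: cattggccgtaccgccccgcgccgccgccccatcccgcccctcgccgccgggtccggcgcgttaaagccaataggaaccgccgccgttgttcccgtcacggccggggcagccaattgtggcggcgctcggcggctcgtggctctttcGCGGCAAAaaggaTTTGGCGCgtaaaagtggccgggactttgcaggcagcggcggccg
CDC6: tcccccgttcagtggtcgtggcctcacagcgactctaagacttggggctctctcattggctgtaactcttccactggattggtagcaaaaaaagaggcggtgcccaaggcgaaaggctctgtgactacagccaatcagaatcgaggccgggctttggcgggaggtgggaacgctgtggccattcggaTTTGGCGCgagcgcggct
MCM3: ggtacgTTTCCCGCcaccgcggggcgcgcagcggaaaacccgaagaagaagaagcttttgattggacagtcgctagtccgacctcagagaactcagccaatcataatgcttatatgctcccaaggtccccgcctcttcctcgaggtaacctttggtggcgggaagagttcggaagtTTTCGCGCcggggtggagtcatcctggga
DUSP1: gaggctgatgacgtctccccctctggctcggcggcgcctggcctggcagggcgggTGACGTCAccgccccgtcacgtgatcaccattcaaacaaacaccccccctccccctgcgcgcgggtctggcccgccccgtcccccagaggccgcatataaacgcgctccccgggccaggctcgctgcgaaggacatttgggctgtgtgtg
HBEGF: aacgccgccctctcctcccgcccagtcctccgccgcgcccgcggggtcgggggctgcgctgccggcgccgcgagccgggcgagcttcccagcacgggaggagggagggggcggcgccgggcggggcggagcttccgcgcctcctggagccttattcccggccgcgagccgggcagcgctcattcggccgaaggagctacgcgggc

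H3K4me3 covered less of the genome after CARM1 inhibition. The DMSO lists covered 28.5 and 25.2 Mb in 12476 and 11481 peaks, and the inhibitor lists 20.9 and 18.9 Mb in 10317 and 10048 peaks. Over the 9477 shared regions, the median covered length was 2361 and 2212 bp with DMSO against 1956 and 1793 bp with the inhibitor. The groups did not overlap. Their means were 2287 ± 105 bp and 1875 ± 115 bp (SD, n = 2), a difference of -412 bp or -0.29 in log2, with an exact two-sided permutation p of 0.33, the smallest that 6 assignments allow. Each inhibitor library had a shorter covered length than each DMSO library at 7762 regions (81.9%) and a longer one at 60. The median change per region was -381.5 bp, with quartiles of -542.5 and -251.5 bp.

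The loss in base pairs grew with the width of the region, and the loss in proportion did not. With regions split by mean covered length into 5 equal parts, the median change was -323.5 bp in the narrowest part (504 to 1680 bp) and -477.5 bp in the widest (2648 to 13474 bp). Relative to the genome-wide median, those were -0.03 and 0.07 in log2. Across the 9477 regions the Spearman correlation of relative change with mean covered length was 0.22, a description over regions that share the same 4 libraries. PAX5, a master regulator of B-cell identity, had the widest region of all, at 15441 and 15026 bp with DMSO against 12587 and 10841 bp with the inhibitor. Its relative change of -0.10 (SE 0.15) did not pass the test (limma, adjusted p = 0.767). IRF2BP2, IKZF2, BCL11A and PCDH9, which had the next widest gene-end regions, did not pass either, with relative changes of 0.15, 0.19, -0.01 and 0.27.

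To find regions that departed from the common narrowing, each library was centred on its own median and treatments were compared with limma over all 9477 regions. Regions with an adjusted p under 0.05 are called narrower or wider than the genome-wide change. Of the regions, 206 (2.17%) were narrower and 56 (0.591%) wider. At gene ends the counts were 170 and 43 of 8146 regions, and elsewhere 36 and 13 of 1331. Wide regions were called more often: 70 narrower and 34 wider of the 1896 widest regions, against 11 and 0 of the 1898 narrowest. Before adjustment, 1845 regions had p under 0.05. Without centring, the same model called 2642 regions lower and 12 higher in covered length. Leaving out DMSO replicate 1 left 65 narrower and 25 wider regions and leaving out DMSO replicate 2 left 90 and 17. Without inhibitor replicate 1 the counts were 605 and 239, and without inhibitor replicate 2 they were 414 and 140.

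**Figure D1:**
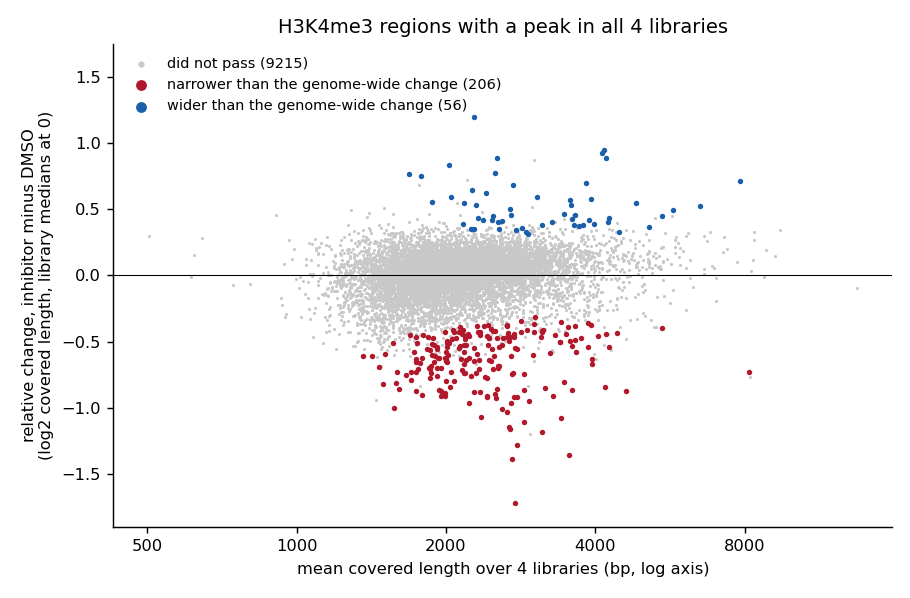
Relative change in covered length (log2, inhibitor minus DMSO, each library's median set to 0) against mean covered length in bp on a log axis, 1 point per region with a peak in all 4 libraries. The 206 narrower regions (red) and 56 wider regions (blue) stand on either side of 9215 regions that did not pass (grey). The regions of largest fall lie near the middle of the log axis, where the widest of 5 equal parts of the regions begins (2648 bp).

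E2F2 showed the largest relative fall at a gene end. It encodes a transcription factor that activates genes for DNA replication. Its region on chromosome 1, 23527323 to 23532078 (hg38), covered 4756 and 4046 bp with DMSO against 1244 and 961 bp with the inhibitor. Both inhibitor libraries lay far below both DMSO libraries, and the relative change was -1.72 (SE 0.10; limma, adjusted p = 0.000521). Peaks with DMSO ran from 845 and 518 bp before the 5′ end to 3910 and 3527 bp into the gene. With the inhibitor they ended 1120 and 824 bp into the gene, and the E2F word printed above, 42 bases before the start, stayed inside the peak. H3K27ac peaks at the region were lost as well, and H3K4me1 peaks were present in all 4 libraries.

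SMAD6 and GFI1 had the same adjusted p. Unlike E2F2, neither held H3K27ac peaks in any library, and both lost H3K4me1 peaks. SMAD6, an inhibitory SMAD of the BMP pathway, had a region (chromosome 15, 66700229 to 66704680) that covered 4452 and 3847 bp with DMSO against 1537 and 1270 bp with the inhibitor, a relative change of -1.28 (SE 0.08; limma, adjusted p = 0.000521). GFI1 encodes a transcriptional repressor of blood cell development. Its region (chromosome 1, 92483094 to 92487439) covered 4346 and 3961 bp and then 1709 and 1459 bp, a relative change of -1.11 (SE 0.07; limma, adjusted p = 0.000521). In both genes the groups were separated by more than 2 kb. ANXA2R and ANG, a secreted ribonuclease that shares its region with RNASE4, had relative changes of -1.36 (SE 0.19) and -1.18 (SE 0.23), with the inhibitor libraries further apart from each other than in E2F2. At ANG they covered 2320 and 1148 bp against 4746 and 4300 bp with DMSO, and it did not pass without DMSO replicate 1 or 2 (adjusted p = 0.0914 and 0.0871).

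The other 5 regions with the largest falls had relative changes between -1.14 and -0.97. H2AC16 and H1-5, a core histone gene and a linker histone gene that share 1 region on chromosome 6, went from 3647 and 3698 bp to 1711 and 1303 bp (relative change -1.01). The PRPF6 region, also at an end of SAMD10, went from 4393 and 3406 bp to 1709 and 1204 bp, and that of LIMD1, an adaptor protein, from 5194 and 4592 bp to 1594 and 2246 bp. The region counted for CTC1, a telomere maintenance gene, lay outside the gene within 2 kb of an end (3117, 3152, 1359 and 1270 bp). That for CCND2, which encodes cyclin D2, likewise overlapped no gene and reached the 2 kb window in 1 library, at 4326, 3272, 1588 and 1425 bp.

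HBEGF widened most among gene-end regions. It encodes a heparin-binding growth factor of the EGF family. Its region on chromosome 5 (140341739 to 140347808) covered 3500 and 2941 bp with DMSO against 5817 and 4415 bp with the inhibitor, so it grew in base pairs while the median region shrank. The relative change was 0.95 (SE 0.10; limma, adjusted p = 0.00311), and H3K27ac peaks were gained there. The peak began 1205 and 985 bp before the 5′ end with DMSO and 952 and 793 bp before it with the inhibitor. It ended 2294 and 1955 bp into the gene with DMSO against 4864 and 3621 bp with the inhibitor, so the added length lay downstream.

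TNFRSF13C and BLNK, both of the B-cell surface and signalling list, were among the 10 largest rises. TNFRSF13C, the receptor for the survival factor BAFF, shares its region with CENPM and went from 1830 and 1471 bp to 2475 and 2326 bp (relative change 0.84, SE 0.10; limma, adjusted p = 0.00452). BLNK, the adaptor that links the B-cell receptor to its downstream enzymes, went from 3269 and 3162 bp to 3934 and 3871 bp (relative change 0.57, SE 0.07; limma, adjusted p = 0.00582). In both, each inhibitor library exceeded each DMSO library. TFDP2, a dimerization partner of the E2F factors, rose from 2127 and 2123 bp to 2870 and 2510 bp, a relative change of 0.62. ASXL1, a Polycomb-associated gene, held the widest of these regions, at 7775, 5630, 9769 and 8106 bp. CBFA2T3, PARP15 (in a region also at an end of DTX3L), GLRX, PPM1H and KANSL1L had relative changes from 0.58 to 0.77. Without DMSO replicate 1, PPM1H and KANSL1L did not pass (adjusted p = 0.0848 and 0.0545), and without DMSO replicate 2, ASXL1, GLRX and PPM1H did not (0.221, 0.118 and 0.153).

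**Figure D2:**
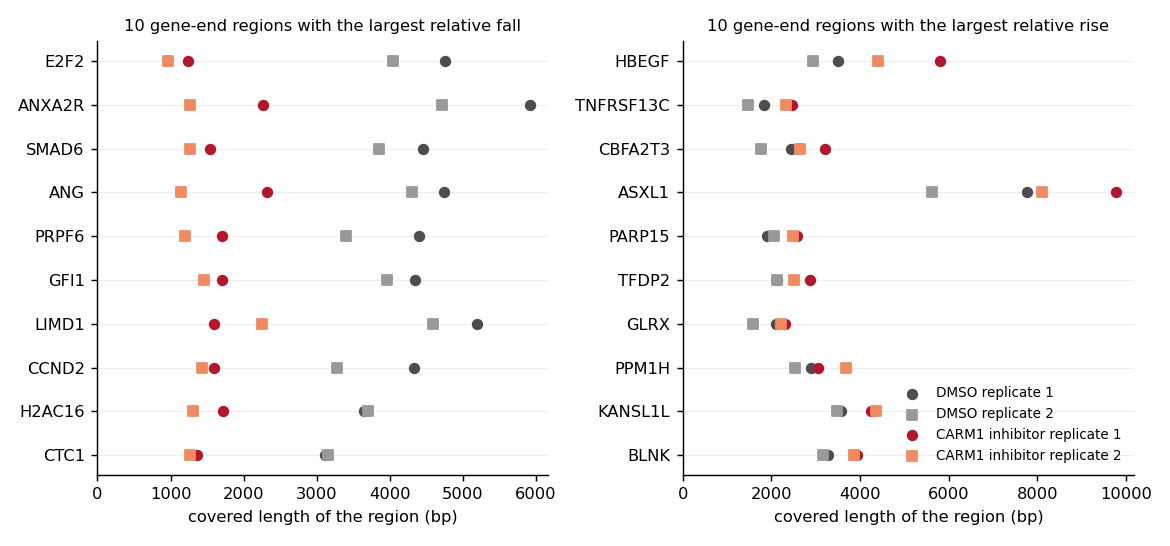
Covered length in bp (x axis) of the 10 gene-end regions with the largest relative fall (left) and the 10 with the largest relative rise (right), 1 point per library. On the left the inhibitor libraries (red and orange) sit below the DMSO libraries (dark and light grey) in each row, from 1244 and 961 bp against 4756 and 4046 bp at E2F2, and on the right they sit above them.

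**Figure D3:**
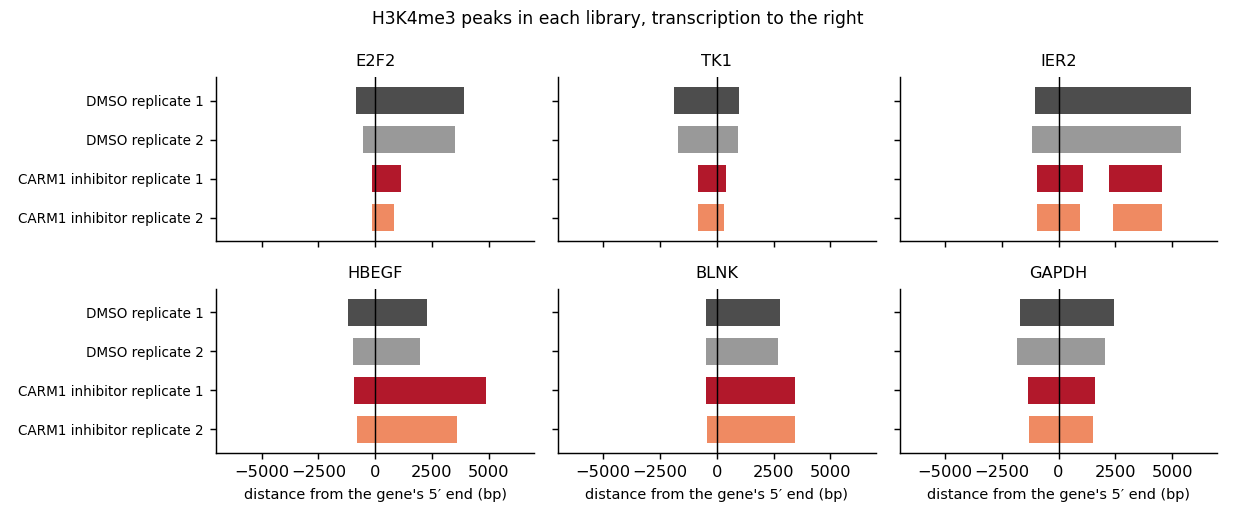
Extent of H3K4me3 peaks in each library around the 5′ end of 6 genes, as distance in bp from that end, with transcription to the right. The E2F2 and TK1 peaks shrank on both sides, the IER2 peak broke into 2 peaks, the HBEGF and BLNK peaks reached further downstream, and GAPDH, a housekeeping gene, did not pass the test (relative change -0.19).

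By the median change per region, narrowing took away similar lengths on both sides of the start. The 4223 regions read here hold a single RefSeq start, which lay inside a peak in all 4 libraries. Their median reach upstream was 900 and 833 bp with DMSO against 667 and 581 bp with the inhibitor. Downstream it was 1309, 1233, 1126 and 1042 bp in the same order. Between the treatment means of these library medians, the difference was -242.5 bp upstream and -187 bp downstream. The median change per region was -175 bp upstream and -186.5 bp downstream. At 81 narrower regions of this kind it was -482.5 bp upstream and -719.5 bp downstream, and 49 (60.5%) lost more downstream, against 2192 (51.9%) of all. At 28 wider regions the median change was -62 bp upstream and 425 bp downstream, and 4 lost more downstream. Since a called region changed in total length by definition, these medians describe where the change lay and were not tested.

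**Figure D4:**
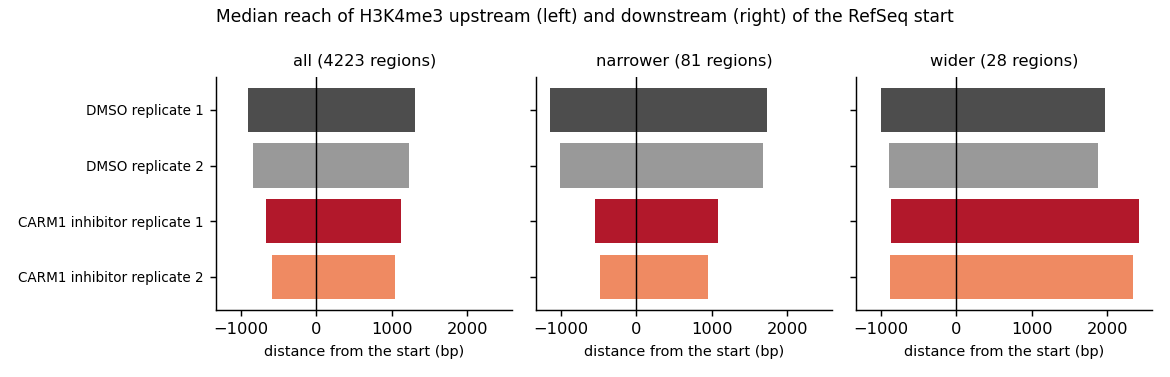
Median distance in bp that H3K4me3 reached upstream (negative) and downstream (positive) of a lone RefSeq start, 1 bar per library, for all 4223 regions, 81 narrower and 28 wider regions. In the wider regions the upstream side stayed between 867 and 994 bp and the downstream side rose from 1968 and 1878 bp to 2417 and 2333 bp.

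Gene lists were read at the region of each gene's 5′ end. Among 9570 genes tested there, 204 (2.13%) were narrower and 48 (0.502%) wider, and after centring 1996 (20.9%) had each inhibitor library below each DMSO library. The median relative change over all these genes was 0.03. Calls were most frequent in wide regions, and the lists differ in width. The median covered length was 2352 bp for cell cycle genes and 3299 bp for immediate early genes, and the shares were not matched for it. The lists were chosen with earlier results of these data known, and their counts are set beside these shares as descriptions.

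Cell cycle genes had the largest share of narrower regions. Of 44 tested, 13 (29.5%) were narrower and none wider, 40 had a relative change below 0, and 36 were lower in both inhibitor libraries after centring. Their median relative change was -0.29. In the libraries, the list's median stood at 0.30 and 0.26 above the genome-wide median with DMSO and at -0.09 and -0.11 with the inhibitor. The 13 are 3 kinds of gene. E2F1 and E2F2 are transcription factors of the G1 to S step, with CCND2 and the phosphatase CDC25A, which drive it. CDC6, CDT1, MCM3 and MCM5 license replication origins, and TK1 and RRM2 make deoxynucleotides. TOP2A, KIF11 and BUB1B act on chromosomes and the spindle in mitosis.

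TK1, thymidine kinase, covered 2872 and 2665 bp with DMSO against 1261 and 1155 bp with the inhibitor, in a region shared with AFMID (relative change -0.91, SE 0.09; limma, adjusted p = 0.00165). BUB1B, a spindle checkpoint kinase, covered 2655 and 2512 bp and then 1205 and 1292 bp (relative change -0.76, SE 0.10; limma, adjusted p = 0.00779). In both, the inhibitor libraries lay below the DMSO libraries by over 1 kb. BUB1B did not pass without DMSO replicate 1 or 2 (adjusted p = 0.0529 and 0.058). The members beyond the 4 of largest change were named after their values were seen. Among them, CDC6, the loader of the replicative helicase, covered 2346, 2325, 1179 and 1164 bp (DMSO, then inhibitor). CDT1, its partner, covered 2642, 2564, 1384 and 1244 bp, and MCM3, a helicase subunit, covered 3019, 2975, 1654 and 1593 bp. E2F1 covered 2969, 2748, 1715 and 1257 bp. The remaining 5 (MCM5, TOP2A, KIF11, RRM2 and CDC25A) had relative changes from -0.58 to -0.41.

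Other members had values below 0 without passing, and a few had values above 0. MCM2 had values of 2373, 2091, 1125 and 1326 bp and a relative change of -0.58 but did not pass (limma, adjusted p = 0.0577), since its replicates were more widely spread. PCNA, MCM6 and MKI67 had relative changes of -0.29 each, with adjusted p from 0.0878 to 0.103. Of the kinases that cyclins activate, CDK1 had a relative change of -0.27 (2618, 2320, 1726 and 1632 bp), and CDK2, CDK4 and CDK6 had 0.16, 0.05 and 0.14, none past the test. AURKB, a mitotic kinase, had peaks of 2300 and 2166 bp with DMSO and none with the inhibitor. The count of 13 fell to 6 without DMSO replicate 1 and to 4 without DMSO replicate 2, and rose to 20 without inhibitor replicate 1 and to 18 without inhibitor replicate 2.

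E2F words were frequent in the starts of these genes. Of 47 cell cycle promoters in tested regions (250 bases before to 50 after the start, both strands), 15 (31.9%) held 1 of the 4 words, against 743 of 12388 (6.00%) promoters in all tested regions and 1152 of 34789 (3.31%) of all listed promoters. The 47 promoters belong to 35 genes. Among the narrower cell cycle genes 6 of 13 promoters, which belong to 11 genes, held a word. Those 6 belong to E2F1, E2F2, CDC6, CDT1, MCM3 and CDC25A. Over all narrower regions 25 of 266 promoters (9.40%) held a word and over all wider regions 0 of 62. The words are a match of letters, and these shares were not tested. The cAMP response element marked in DUSP1 was in 2 of 8 promoters (7 genes) of narrower immediate early genes and 5 of 25 (23 genes) of the list. It was in 4 of 266 in all narrower regions, 422 of 12388 (3.41%) in tested regions and 641 of 34789 (1.84%) of all listed promoters. Base composition showed little relation to the change. Across 7615 regions the Spearman correlation of relative change with the observed to expected CpG ratio was 0.01, and with GC content -0.04, both descriptions.

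Immediate early genes, which stimuli switch on within minutes, split into genes that narrowed and genes that did not pass. Of 29 tested, 8 (27.6%) were narrower and none wider, yet the list's median relative change was -0.02. EGR2 and EGR3 are zinc finger transcription factors, ZFP36L1 a factor that binds mRNAs and speeds their decay, and FOSL2 a subunit of AP-1. EGR2 went from 3899 and 3788 bp to 2064 and 1714 bp (relative change -0.74, SE 0.08; limma, adjusted p = 0.00272), and EGR3 from 3596 and 2892 bp to 1454 and 1409 bp (-0.88, adjusted p = 0.00311). FOSL2 went from 4100 and 3754 bp to 2183 and 1432 bp (-0.86, adjusted p = 0.0142), and did not pass without DMSO replicate 1 or 2 (0.0522 and 0.0504). ZFP36L1 kept a peak in its region (7294, 5523, 2930 and 2738 bp; -0.88, adjusted p = 0.00452), but with the inhibitor no peak came within 2 kb of either gene end. The others were DUSP1, JUNB, KLF2 and IER2, named after their values were seen. The phosphatase gene DUSP1, whose start is printed above, covered 3406, 3262, 2055 and 1910 bp. IER2 lay in 1 peak of 6882 and 6569 bp with DMSO and in 2 peaks that together covered 4341 and 4016 bp with the inhibitor.

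Other members of that list did not pass. EGR1 covered 2986, 2587, 2620 and 2482 bp (relative change 0.16), BTG2, an antiproliferative gene, 4992, 4065, 4659 and 4732 bp (0.35, adjusted p = 0.0934) and JUN 4025, 3264, 2984 and 2687 bp (-0.07). DUSP2, NR4A1 and PER1 lost their gene-end peaks. FOS had a peak of 3024 and 2934 bp with DMSO, 1226 bp in inhibitor replicate 1 and none in inhibitor replicate 2. Without DMSO replicate 1, and likewise without DMSO replicate 2, the list's narrower count fell to 3, and without inhibitor replicates 1 and 2 it was 10 and 9.

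Of 16 genes of the NF-kB pathway tested, 2 were narrower and 1 wider, with a median relative change of -0.14. CFLAR, an inhibitor of caspase 8 activation, fell from 3889 and 3736 bp to 1778 and 1542 bp (relative change -0.92, SE 0.07; limma, adjusted p = 0.00111). NFKBIA, the inhibitor IkBα, fell from 4180 and 3594 bp to 2385 and 2332 bp (-0.43, adjusted p = 0.0235). TNFAIP3, the ubiquitin-editing enzyme A20 that damps the pathway, went from 5488 and 4811 bp to 5882 and 5634 bp (0.45, adjusted p = 0.0234). Without DMSO replicate 1 or 2, NFKBIA did not pass (adjusted p = 0.182 and 0.0591) and neither did TNFAIP3 (0.103 and 0.19). The subunits NFKB1, NFKB2, REL, RELA and RELB had relative changes from -0.10 to 0.15, none past the test. NFKBIZ and TRAF1 lost their peaks.

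Few B-cell identity genes passed the test, as did few of all genes. After centring, 9 of 20 B-cell transcription factors had each inhibitor library below each DMSO library and 5 had each above. The shares of all gene-end regions were 21.3% and 30.8%. The median relative change of the 20 was -0.07. By the test 1 of them was narrower and none wider, against 2.13% and 0.502% of all genes tested. That was IKZF3, a member of the Ikaros family, at 4531 and 4898 bp with DMSO against 2721 and 2461 bp with the inhibitor (relative change -0.58, SE 0.08; limma, adjusted p = 0.00938, and 0.058 without DMSO replicate 2). BCL6, the repressor of the germinal centre, covered 3457, 3333, 2419 and 2217 bp (-0.26, adjusted p = 0.0855), and IRF4 and PRDM1 had relative changes of 0.07 and -0.08, neither past the test. EBF1 stood at 0.20 and KMT2D, often mutated in lymphoma, at -0.12, also without passing. Of 13 germinal centre genes, GCSAM alone was narrower (3430, 2953, 1829 and 1929 bp, adjusted p = 0.0328, and 0.206 and 0.0853 without DMSO replicate 1 or 2). Of 15 plasma cell genes none passed. Of 23 surface and signalling genes none was narrower and 2, TNFRSF13C and BLNK, were wider, against 0.502% of all genes tested. After centring, 11 of the 23 had each inhibitor library below each DMSO library, against 21.3% of all gene-end regions. In 7 each inhibitor library was above, against 30.8% of those regions, and the median relative change was -0.06. The BAFF family receptors TNFRSF13B (3917, 3427, 0 and 1235 bp) and TNFRSF17 (2532, 1833, 1386 and 0 bp) lacked a peak in 1 inhibitor library and were not tested. The region read for CD79A (2590, 2462, 1215 and 0 bp) was not tested either, though CD79A had a peak at a gene end in all 4 libraries.

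**Figure D5:**
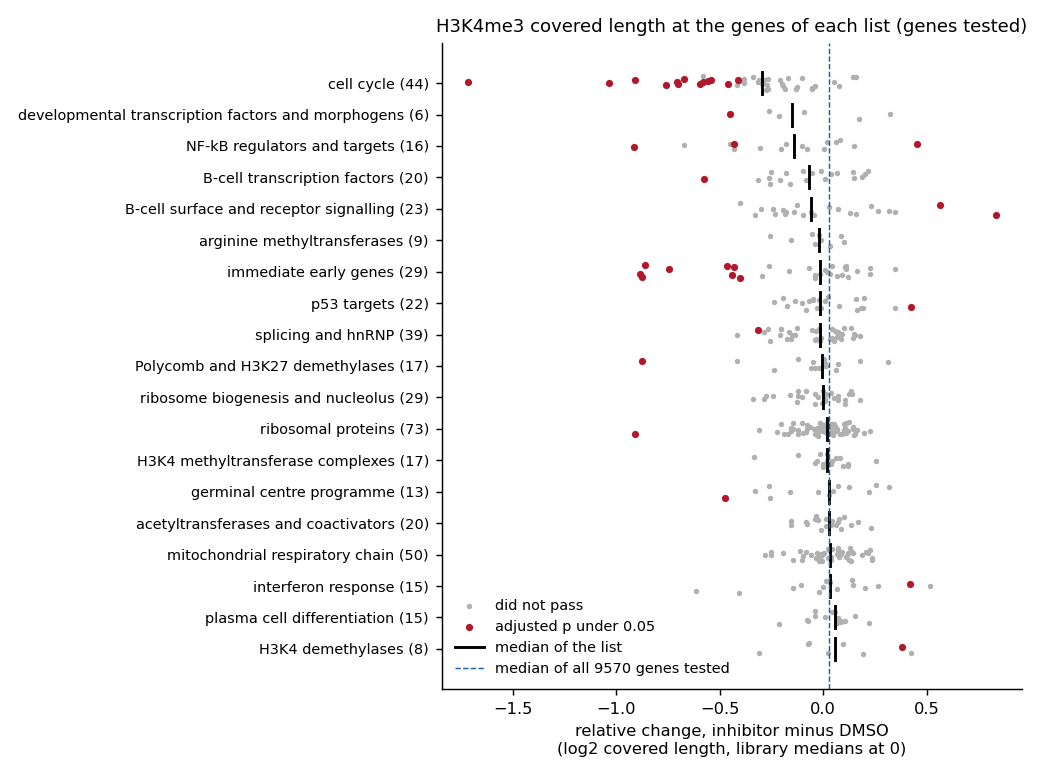
Relative change in covered length (log2, inhibitor minus DMSO, library medians at 0) of each tested gene in 19 lists, with the list's median as a black bar and the median of 9570 genes as a dashed line. Cell cycle genes sit to the left with a median of -0.29, immediate early genes split into 8 narrower genes and a group near 0, and ribosomal protein and respiratory chain genes centre on the dashed line.

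Few genes of the enzymes that write and erase the mark passed the test in their own H3K4me3. Among all genes tested 2.13% were narrower and 0.502% wider, and at those shares lists this small would hold few or no calls. Of 17 genes of the methyltransferase complexes none passed, with KMT2A nearest (4555, 4710, 3077 and 2936 bp; -0.34, adjusted p = 0.0583). Of 8 demethylase genes KDM5B passed and was wider, at 3080 and 2971 bp with DMSO against 3228 and 3235 bp with the inhibitor (relative change 0.38, SE 0.07; limma, adjusted p = 0.0331). Its call was lost without DMSO replicate 1 or 2 (adjusted p = 0.196 and 0.127) and in 4 of 9 alternatives in all. KDM5A, a close relative, covered 3361, 3206, 3383 and 3854 bp (0.42, adjusted p = 0.0671). KDM2B lost its gene-end peaks of 2624 and 2323 bp. CARM1 itself covered 1942, 1798, 1578 and 1410 bp (-0.04, adjusted p = 0.862), and none of 9 arginine methyltransferase genes passed. CREBBP and EP300 had relative changes of -0.04 and -0.08, and none of 20 acetyltransferase and coactivator genes passed. In the Polycomb list 1 of 17 passed: SUZ12, a core subunit of PRC2, fell from 3079 and 2337 bp to 1196 and 1203 bp (-0.87, adjusted p = 0.00783, and 0.0639 without DMSO replicate 1).

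Housekeeping lists stayed near the genome-wide median. Of 73 ribosomal protein genes 1 was narrower, RPL28, whose region also holds the start of TMEM238 (4607, 4561, 2134 and 1872 bp), and the list's median relative change was 0.02. None of 50 respiratory chain genes and none of 29 ribosome biogenesis genes passed, with medians of 0.03 and -0.00. Of 39 splicing genes HNRNPR was narrower (-0.31, adjusted p = 0.0485). The p53 target TP53INP1 was wider (0.42, adjusted p = 0.0219), as was STAT2 of the interferon list (0.42, adjusted p = 0.0429), and no other tested member of either list passed. The p53 targets CDKN1A and DDB2 lost their gene-end peaks and were not tested. SKOR1 was the 1 of 6 tested developmental genes that was narrower (-0.45, adjusted p = 0.0474). The region counted for it holds a start of LOC124903570 and lay outside SKOR1, within 2 kb of an end. HNRNPR, TP53INP1, STAT2 and SKOR1 each failed to pass without DMSO replicate 1 and without DMSO replicate 2, with adjusted p from 0.0555 to 0.285.

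By presence and absence, losses far outnumbered gains with the lists as deposited. Of 10800 genes with a peak within 2 kb of an end in both DMSO libraries, 612 (5.67%) had none in either inhibitor library. Of 8189 genes with none in DMSO, 1 (0.0122%) gained a peak in both inhibitor libraries: YPEL4, at 2118 and 2014 bp. With each list trimmed to its 10048 widest peaks, 242 of 9809 genes (2.47%) lost and 118 genes gained H3K4me3, and 221 of the 242 were among the 612. The shortest peak kept was 1590 and 1407 bp with DMSO but 1039 and 487 bp with the inhibitor. A gene could therefore count as gained because the trim cut its DMSO peak, and a lost narrow peak could leave the count. The trimmed counts cannot separate this from a change in the mark. At 5′ ends 481 of 8727 genes lost the mark (5.51%) and at 3′ ends 211 of 1399 (15.1%), a difference that was not tested. Loss fell on narrow peaks. Of regions split by DMSO width into 5 equal parts, it took 41.7% of the 2276 narrowest (up to 1680 bp) and 0.792% of the 2273 widest.

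The widest peaks lost at gene ends ran past 6 kb. ADM, the vasodilator peptide adrenomedullin, and SBF2 shared a peak of 6220 and 6315 bp that was absent with the inhibitor. KLHL14 lost peaks of 5096 and 4312 bp, BMP7, a ligand of the BMP pathway, 3660 and 3524 bp and KCND1 3308 and 3150 bp. SEZ6, ZFP36L1 and HMGB3 lost the peak near their ends while a peak in the same merged region remained in all 4 libraries.

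Loss was counted in the same lists, without a test between them. Among B-cell surface and signalling genes with a DMSO peak 6 of 32 lost it: CD22, CD37, CD40, CD72, CR2 and FCRL5, named after their values were seen, against 5.67% of all genes. CD72 lost the peak near its ends while a peak in the same merged region remained in all 4 libraries (3191, 2645, 2179 and 2007 bp). CD22 had 1560 and 1557 bp and CR2, the complement receptor, 1717 and 1801 bp with DMSO, both below the median of 2282.5 bp of regions kept in all 4 libraries. With lists of equal length 4 of 30 lost it, against 2.47% of all genes. Of 25 interferon response genes 6 lost it, among them MX1 (1381 and 1319 bp) and IFIT2 (1286 and 1237 bp), and with lists of equal length 0 of 17. Those lists kept DMSO peaks from 1590 and 1407 bp upward. Each of the 6 had a shorter peak in at least 1 DMSO library, so none of them could count as lost there. Of 16 developmental genes with a DMSO peak 4 lost it (BMP7, FOXD3, LHX9 and PAX2) and 5 of 12 with equal lists. Of 25 p53 targets 2 lost it, and 2 of 25 with equal lists. They are CDKN1A (2949 and 2632 bp with DMSO) and DDB2 (2795 and 2546 bp), named after their values were seen. In the cell cycle list it was 1 of 44, and in the ribosomal protein, respiratory chain and splicing lists 0 of 73, 0 of 51 and 0 of 39.

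H3K4me3 was compared with the other marks at the 8146 gene-end regions. At 142 regions with H3K4me1 peaks in all 4 libraries 22 (15.5%) were narrower and the median relative change was -0.13, whereas at 3705 regions without H3K4me1 28 (0.756%) were narrower and the median was 0.04. At 702 regions that lost H3K4me1 in both inhibitor libraries, 34 (4.84%) were narrower. At 3595 regions with H3K4me1 in another mix of libraries it was 86 (2.39%), which is 50.6% of the 170 narrower gene-end regions. By H3K27ac the shares were closer: 31 of 825 regions (3.76%) with it in all 4 libraries, 22 of 507 (4.34%) that lost it and 70 of 4338 (1.61%) without it were narrower. Wider regions numbered 18 of 825 (2.18%) with H3K27ac in all 4 libraries and 2 of 507 (0.394%) where it was lost. The differences between these shares were not tested. Regions with H3K27ac in all 4 libraries were also wider, with a median of 3013 bp against 1861 bp where it was absent. For H3K4me1 those medians were 2592 and 1965.5 bp, and wide regions were called more often.

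Away from gene ends, 1331 regions held a peak in every library, and 779 of them (58.5%) had some RefSeq start within 2 kb. The examples here were chosen after their values were seen. A region in CRYBG1 on chromosome 6 covered 4359 and 3882 bp with DMSO against 1462 and 1141 bp with the inhibitor (relative change -1.38, SE 0.09; limma, adjusted p = 0.000521). A region inside RAG1, a recombinase gene of developing lymphocytes, widened from 3933 and 2792 bp to 4931 and 5125 bp (0.89, SE 0.13, adjusted p = 0.00896). A region in MEF2C, a transcription factor of B cells, widened from 3606 and 2981 bp to 4410 and 4321 bp (0.70, SE 0.08, adjusted p = 0.0046). At all 3 the groups did not overlap.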

How the data were processed

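The 4 H3K4me3 libraries (and 8 of the other marks) were used as the peak lists that the authors deposited, 3 columns of positions (chromosome, start, end) with no score, count or p-value. The submitters' processing notes name the build hg38 and, as tools, MACS 1.4.2 and Bowtie 1.1.2. Read depth, the peak threshold and the part played by the inputs are not stated there. Peaks that overlapped or touched were merged over the 4 libraries. Covered length (bp) per library was log2 transformed in regions with a peak in all 4, centred on the library median and tested with limma 3.58.1 (R 4.3.3; trended eBayes, Benjamini-Hochberg over 9477 regions). The code was tested on simulated data. Single values had an exact two-sided permutation test over 6 assignments.

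Genes were 19970 protein-coding genes of RefSeq GRCh38.p14, with 2 kb windows at both ends. Strand came from listed RefSeq starts for 15811, and for the others the widest region at either end was used. A gene was lost with a peak in both DMSO libraries and no inhibitor library, gained in the opposite case. For 617 genes no peak of any list lay within 500 kb, and they were left out of the genes counted as without a DMSO peak. Of 22 lists with 673 genes, 1 gene was not matched. Members, lists and motifs were chosen with earlier results of these data known. Named were the 10 largest falls and rises among passing gene-end regions (mean at least 1000 bp, no overlap between groups), the 8 widest lost genes, all gained genes, the 5 widest regions, up to 4 passing members per list and 11 fixed genes, of which 1 is not reported here. Alternatives were other normalizations, merging, windows, trimmed lists and leaving out each library.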

Additional observations from a re-analysis of the deposited data

How the results depend on the processing

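The direction of the genome-wide narrowing held in each alternative run, from -0.35 to -0.23 in log2 with 1 library left out and -0.28 with lists of equal length. The replicate block, which is not given by the design (same-numbered libraries correlated at 0.04), left 185 narrower and 49 wider regions, with 172 and 45 shared with the unblocked result, and 12 cell cycle and 8 immediate early genes narrower. Without centring 2642 regions were lower and 12 higher, with 40 cell cycle genes lower. Limma without a trend called 123 narrower and 18 wider, with 5 immediate early genes, and cyclic loess called 37 wider. Leaving out 1 library at a time gave 65 to 605 narrower regions, 17 to 239 wider regions, 4 to 20 cell cycle and 3 to 10 immediate early genes. It also gave 624 to 989 lost and 1 to 5 gained genes, and a gene-end share 2.25 to 5.56 percentage points higher with the inhibitor. The cause of these differences was not tested. With lists of equal length that share was 1.09 points lower instead (-1.09, against 3.90 with all peaks), and 242 genes lost and 118 gained the mark. Those lists cut DMSO peaks at a greater width than inhibitor peaks, so their lost and gained counts depend on the trim itself. Of 51 named regions that passed, 28 passed in all 9 alternatives that kept the merged regions and the centring; E2F2, SMAD6, GFI1, TK1, HBEGF, TNFRSF13C and BLNK are among them, whereas HNRNPR, SKOR1 and STAT2 each failed in 5 and ASXL1, GCSAM, KDM5B, PPM1H and TNFAIP3 in 4. GCSAM, HNRNPR and SKOR1 failed with the replicate block. Of 114 list medians recomputed, 18 moved beyond the spread between replicates and 0 reversed. The counts of list members that lost the mark with lists of equal length were added after the data were seen. Read depth, which limits how far a peak extends, is unknown.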
